A study of Mus musculus with 8 samples.

Results

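The 9 genes described here encode transcription factors that take part in the choice between monocyte and granulocyte fates, other than the C/EBP and GFI1 proteins. They are Spi1, Irf8, Klf4, Runx1, Myb, Myc, Egr2, Zeb2 and Id2, and were found by gene symbol, each on 1 row, among the 23084 genes of the authors' table. RNA was sequenced from CD11b+Ly6C+ (monocytic) and CD11b+Ly6G+ (granulocytic) cells sorted from mouse spleens, with 2 samples in each of 4 groups (WT CD11b+Ly6C+, WT CD11b+Ly6G+, KO CD11b+Ly6C+ and KO CD11b+Ly6G+). The mice were C57BL/6 and between 6 and 8 weeks old, and carried either wt Lmna or, in the KO groups, floxed Lmna alleles deleted by LysM-Cre, a Cre expressed from the Lyz2 locus in monocytes, macrophages and neutrophils. Whether the wt mice carried the Cre or the floxed alleles is not given in the sources used here, and the cell-marker label reads CD11b+Ly6C+ for all 8 samples, so the subset was taken from each title. The paper does not state whether the mice used for RNA sequencing bore tumors. The value reported is the authors' mean signal, an average over samples of the estimated counts after division by size factors. It is not split by genotype or subset, and whether it averages the 4 CD11b+Ly6C+ samples or all 8 is not stated, so it has no SD and no n. The methods give the reads per sample only as a range over the series, and the depth of each sample is not given in the sources used here. The values therefore show how strongly each factor was expressed in the averaged samples. Effects of the Lmna deletion are not reported here.

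Commitment of a bone marrow progenitor to the monocyte or the granulocyte branch depends on the relative amounts of a few transcription factors. PU.1, the protein of Spi1, is an ETS-family factor required in both branches and acts with IRF8, which favours monocytes and dendritic cells over neutrophils. KLF4 and EGR2 act later on the monocyte side, RUNX1, MYB and MYC are factors of progenitors and dividing precursors, ZEB2 is a zinc-finger repressor, and ID2 binds E proteins and keeps them from DNA. For this reason the levels are given below in that order of roles, each beside its relatives and binding partners.

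Promoter sequences for 7 of the 9 genes were taken from RefSeq (build GRCm38.p6), while Spi1 and Myc had none in that table. Shown are the 2 factors with the highest mean signal per length among the 7, Id2 and Irf8, and the one with the lowest, Egr2, so that the promoters at both ends of the range can be read side by side. Each window holds 300 bases, 250 before and 50 after the annotated start of a transcript, and lies at chr12:25096043-25096342 on the minus strand for Id2, at chr8:120736108-120736407 on the plus strand for Irf8 and at chr10:67537619-67537918 on the plus strand for Egr2. Capitals mark every GAGGAA, a core bound by PU.1, and every TTCNNNGAA, a core bound by STAT proteins, on either strand.
Id2: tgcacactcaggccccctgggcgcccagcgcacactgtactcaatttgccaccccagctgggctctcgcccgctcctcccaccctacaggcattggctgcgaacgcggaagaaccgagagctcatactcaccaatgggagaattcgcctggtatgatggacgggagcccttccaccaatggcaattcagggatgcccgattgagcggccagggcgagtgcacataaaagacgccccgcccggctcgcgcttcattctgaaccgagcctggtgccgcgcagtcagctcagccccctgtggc
Irf8: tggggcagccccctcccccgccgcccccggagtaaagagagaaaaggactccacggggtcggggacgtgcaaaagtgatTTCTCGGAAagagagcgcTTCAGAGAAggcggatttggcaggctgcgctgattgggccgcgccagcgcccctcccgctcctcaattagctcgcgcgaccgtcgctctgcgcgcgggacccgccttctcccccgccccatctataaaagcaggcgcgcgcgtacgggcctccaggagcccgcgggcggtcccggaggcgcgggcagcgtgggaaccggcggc
Egr2: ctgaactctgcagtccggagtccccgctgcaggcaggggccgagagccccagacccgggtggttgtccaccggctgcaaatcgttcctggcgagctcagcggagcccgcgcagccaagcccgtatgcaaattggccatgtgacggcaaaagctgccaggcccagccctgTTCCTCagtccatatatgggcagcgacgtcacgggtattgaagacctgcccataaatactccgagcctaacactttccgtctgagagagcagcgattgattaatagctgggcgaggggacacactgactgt
The Irf8 window held 2 matches to TTCNNNGAA and no GAGGAA, the Egr2 window held 1 GAGGAA on the reverse strand, and the Id2 window held neither. Of the 12995 promoters with a gene in the table, 27.6% held GAGGAA and 7.0% held TTCNNNGAA, and 2 of the 7 promoters held each (Egr2 and Zeb2 the first, Irf8 and Zeb2 the second). Among the 4532 promoters of genes in the upper quartile of mean signal, the shares were 28.8% and 6.66%. A match is only a match of letters. CpG content differed widely, with 40 CpG dinucleotides in the windows of Klf4 and Myb, 38 in Irf8, 21 in Id2, 19 in Egr2, 8 in Zeb2 and 2 in Runx1, where the median over all promoters was 18. Runx1 and Irf8 had 2 windows each, Zeb2 had 4 and Egr2 had 5, and the counts describe only the 1 window used for each. Id2 and Egr2, the highest and the lowest of the 7 per exon base, had nearly the same number of CpG dinucleotides. Id2 was not the highest of the 7 with the 2 other lengths used below.

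All 9 factors were detected, and their mean signals spread over a 144-fold range. Spi1 had the highest value, 12455, which 98.8% of the listed genes did not reach. The mean signal was 3448 for Irf8, 3045 for Zeb2, 1450 for Id2, 1186 for Runx1 and 752 for Myb. Myc had 375, Klf4 had 321 and Egr2 had 86.4. All 9 lay above the median of the listed genes, 46.8, and 6 of them (all but Myc, Klf4 and Egr2) lay above the upper quartile, 599. Spi1 alone made up 53.9% of the summed signal of the 9 factors, and Spi1, Irf8 and Zeb2 together made up 82.0%.

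Levels of different genes were compared per length, as the mean signal per 1000 bases of the union of annotated exons, because a long transcript yields more fragments than a short one. On this scale the order was Spi1 (4622), Id2 (595), Irf8 (489), Zeb2 (153), Myc (138), Klf4 (105), Runx1 (98.6), Myb (84.2) and Egr2 (25.4). Spi1 stood 7.77 times above Id2, and the 9 factors covered a 182-fold range. Among the 15697 protein-coding genes, the share that was lower was 98.6% for Spi1, 88.7% for Id2, 86.3% for Irf8, 66.6% for Zeb2 and 38.2% for Egr2. Spi1, Id2 and Irf8 were above the upper quartile of protein-coding genes (238), 5 factors between 84.2 and 153 were above the median of 60.2, and Egr2 was below it.

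**Figure D1:**
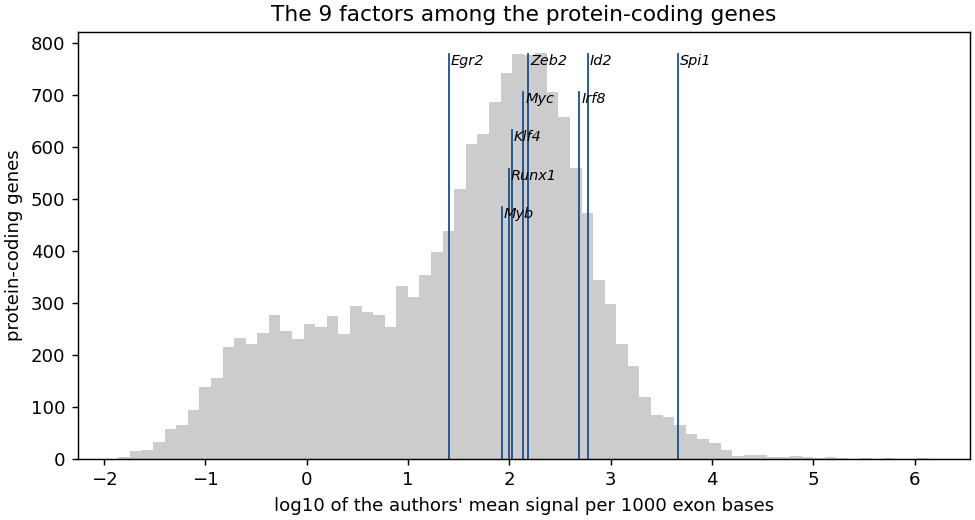
Histogram of the protein-coding genes by the log10 of the authors' mean signal per 1000 exon bases (x axis, y axis number of genes), with a line for each of the 9 factors; line heights only keep the names apart. Spi1 (4622) lies in the upper tail, Id2 (595) and Irf8 (489) on the upper slope, 5 factors near the peak and Egr2 (25.4) on the lower slope.

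The exon length behind each value ranged from 2438 bases for Id2 to 19942 for Zeb2, where the median of protein-coding genes was 4179, so the order was set against 2 other lengths. Of the 36 pairs of factors, 29 kept their order whether the union of exons, the longest transcript or the mean of the protein-coding transcripts was used. Spi1 was highest and Egr2 lowest with all 3 lengths, from 182 to 227 times apart. The 7 pairs whose order turned were Id2 with Irf8 and with Zeb2, Myc with Runx1 and with Myb, Klf4 with Runx1 and with Myb, and Runx1 with Myb. Id2 and Irf8 had a ratio of 1.22 per exon base and of 0.517 per base of the mean protein-coding transcript, and neither can be placed above the other. Zeb2, with 29 annotated transcripts, went from 153 to 1214 per 1000 bases. With no values per sample, none of these differences could be set against the spread between replicates.

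**Figure D2:**
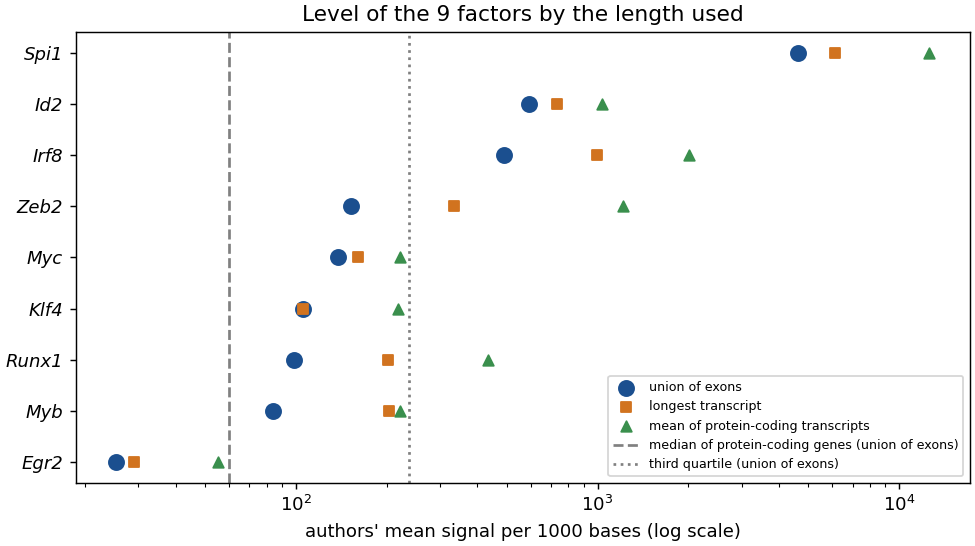
Authors' mean signal per 1000 bases (x axis, log scale) for the 9 factors (y axis), with the union of exons (circles), the longest transcript (squares) or the mean of the protein-coding transcripts (triangles) as the length; the lines give the median (60.2) and the upper quartile (238) of protein-coding genes on the first of these. Spi1 stays at the right and Egr2 at the left with each length, while the symbols of the factors between them cross.

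Spi1 (ENSMUSG00000002111) runs along chromosome 2 (plus strand, 91082390 to 91115756, mm10). The mean signal of Spi1 per 1000 exon bases, 4622, was above that of all 6 relatives and partners on the list with all 3 lengths. Spib, the closest ETS relative and a gene of B cells and plasmacytoid dendritic cells, had 1061, and Spic, the ETS factor of iron-recycling macrophages, had 603. Jun, a co-activator of PU.1, had 597, and Cebpa, the C/EBP factor that opens the granulocyte branch and works with PU.1, had 298. The antagonists of PU.1 in the erythroid and mast cell lineages were far lower, with 19.2 for Gata1 and 11.1 for Gata2, so that Spi1 exceeded them 241-fold and 415-fold. The protein-coding genes next to it in level per length were Cdk2ap2 (4627) and Hmgb2 (4607).

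Irf8 (ENSMUSG00000041515) is on chromosome 8 (plus strand, 120736358 to 120756694). Per 1000 exon bases its mean signal was 489. Irf1, an interferon-induced factor, was higher with all 3 lengths, by 2.72 to 3.60 times. Irf4, the closest relative of Irf8 and a factor of B cells and some dendritic cells, had 177 and was lower with all 3, as was Batf3, a partner of IRF8 in conventional dendritic cells, with 53.9. Irf2 (382) and Irf5 (910) changed side with the length and cannot be ordered against Irf8. Next to Irf8 in level were Zfp516 (489) and Hlx (489), itself a homeobox factor of hematopoietic cells.

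Klf4 and Egr2, the later monocyte factors, lay below the relatives and partners fixed for them, though not below every gene of their families. Klf4 (ENSMUSG00000003032; chromosome 4, minus strand, 55527143 to 55532466) had 105 per 1000 exon bases, and all 4 of its listed relatives were higher with all 3 lengths. Klf6 had 2491 and Klf2, which restrains myeloid activation, had 2250, 23.7 and 21.4 times the value of Klf4. Klf13 had 843 and Klf3, a repressor of the family, had 658. Egr2 (ENSMUSG00000037868; chromosome 10, plus strand, 67535475 to 67542188) had 25.4, the lowest of the 9 factors. Egr1, an immediate early gene that shares its binding site, had 193, or 7.57 times as much, and Egr3 had 35.3. The NAB proteins, which bind EGR factors and repress their activity, were higher too, with 403 for Nab1 and 139 for Nab2. Egr2 was below its 4 relatives and partners with all 3 lengths, although Egr3 was only 1.03 times as high with one of them. All KLF and EGR genes in the table were counted after the values of the fixed lists were seen. Per exon base, 9 of 14 other KLF genes were above Klf4, 7 of them with all 3 lengths, while 2 changed side. The other 5 were below, among them Klf1 (36.0) and Klf12 (1.07), and Egr4 (0.141) was below Egr2. Next to Klf4 in level were Cbr2 (105) and Dyrk1b (105), and next to Egr2 were Atr (25.4) and Mgl2 (25.4).

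Runx1 (ENSMUSG00000022952) spans 224684 bases of chromosome 16 (minus strand, 92601466 to 92826149). It had 98.6 per 1000 exon bases, Runx2 had 139 and Runx3 had 130, and the order of the RUNX genes turned with the length used. Cbfb, whose product is the shared partner that RUNX proteins need to bind DNA firmly, had 644 and was above Runx1 with all 3 lengths, by 1.88 to 6.53 times. Myb (ENSMUSG00000019982; chromosome 10, minus strand, 21124935 to 21160984) had 84.2. It exceeded its relatives Mybl2 (53.1), a gene of dividing cells, and Mybl1 (22.3), and lay below the co-activators that MYB recruits, Ep300 (606) and Crebbp (189), with all 3 lengths. The antisense gene Gm26577 shares 559 exon bases with Myb and had a mean signal of 86.8 against 752, and whether the counting used strand is not given in the sources used here. Tmem199 (98.7) and Tubg1 (98.6) were next to Runx1, and Il27 (84.2) and Sirt6 (84.1) next to Myb.

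Myc (ENSMUSG00000022346) is on chromosome 15 (plus strand, 61985391 to 61990374). It had 138 per 1000 exon bases, and was the main MYC gene expressed, since Mycl had 6.85 and Mycn 0.533. MYC binds DNA only as a dimer with MAX, and Max had 1715, at least 12.4 times the value of Myc with each length. Mxd1, whose product competes with MYC for MAX and represses its targets in cells that stop dividing, had 5973, from 43.3 to 75.2 times the value of Myc. The other MAX partners that repress, Mnt (357) and Mxd4 (314), were above Myc with all 3 lengths, while Mga (158) changed side. Mxd1 was the only one of the 41 relatives and partners above Spi1 per exon base. Frmd4b (138) and Tmem206 (138) were next to Myc in level.

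Zeb2 (ENSMUSG00000026872; chromosome 2, minus strand, 44983632 to 45117395) had 153 per 1000 exon bases. Zeb1, its only close relative, had 106 and was lower with all 3 lengths. Of the co-repressors that ZEB proteins recruit, Ctbp1 had 799 and was higher, and Ctbp2 had 70.2 and was lower, again with all 3. The antisense gene Zeb2os shares 653 exon bases with Zeb2 and had a mean signal of 134 against 3045. Foxp1 (153) and Plk1 (153) were next to Zeb2 in level.

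Id2 (ENSMUSG00000020644; chromosome 12, minus strand, 25093799 to 25097140) had 595 per 1000 exon bases and stood above both other ID genes on the list with all 3 lengths. Id1 had 355 and Id3 had 117. The E proteins that ID2 binds were also lower with all 3, with 522 for Tcf3, which encodes E12 and E47, 53.0 for Tcf12 and 31.9 for Tcf4, the E protein of plasmacytoid dendritic cells. Tcf3 lay closest, at 0.877 times the value of Id2 per exon base and 0.970 times with the longest transcript. Mov10 (595) and Cd55 (595) were next to Id2.

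**Figure D3:**
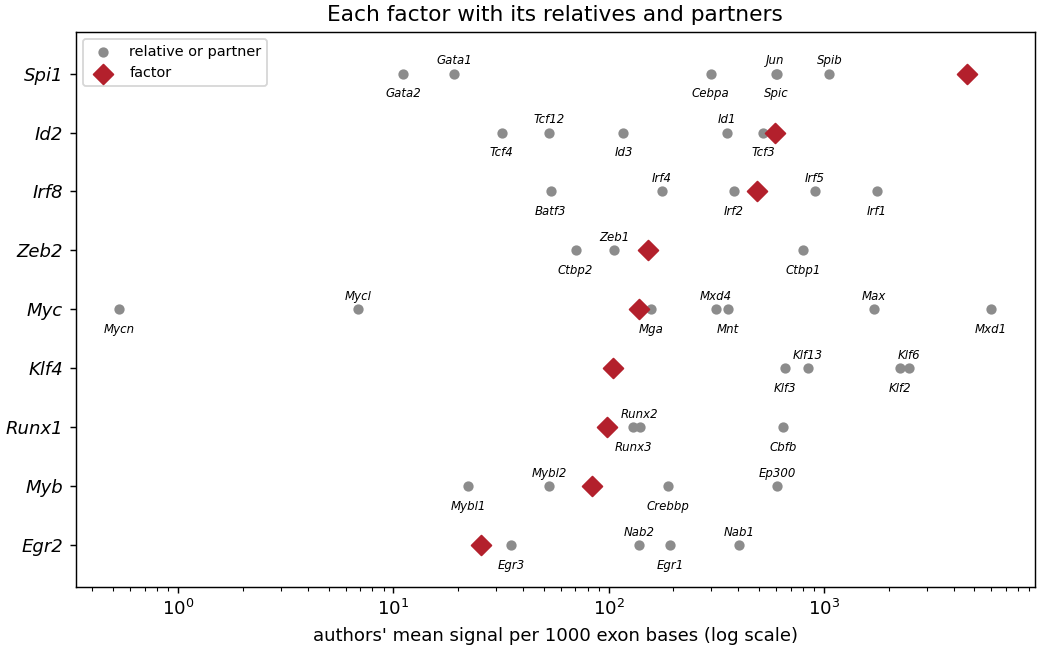
Authors' mean signal per 1000 exon bases (x axis, log scale) for each factor (diamonds, y axis) and its relatives and partners (grey points). Spi1 and Id2 lie to the right of all their grey points, and Klf4, Runx1 and Egr2 to the left of theirs.

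Over all families, 21 of the 41 relatives and partners had a higher mean signal per exon base than their factor and 20 a lower one. With all 3 lengths, 17 were higher and 19 lower, and 5 changed side.

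Receptors of the growth factors that act on these cells were set beside the factors. Csf3r, the G-CSF receptor of granulocytes, had 21306 per 1000 exon bases and Csf1r, the M-CSF receptor of monocytes and a textbook target of PU.1, had 3838, against 4622 for Spi1. The GM-CSF receptor chains Csf2ra and Csf2rb had 2158 and 2036. The receptors of progenitors were low, with 71.3 for Il3ra, 40.1 for Kit and 18.8 for Flt3, all below Myb (84.2). Flt3 was also below Egr2 (25.4) per exon base. With the longest transcript as the length they had 29.4 and 29.1, so Flt3 and Egr2 cannot be ordered.

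Markers of the cell types were read on the same scale. Only the counts above the upper quartile used the mean signal per gene, with an upper quartile of 599 over the listed genes. All 10 genes of the monocyte list were above the upper quartile, with a median of 622 per 1000 exon bases, 5260 for Ly6c2 and 370 for Ccr2. The highest of them was Itgam (10760), which encodes CD11b. Both subsets were sorted on CD11b, so Itgam does not mark monocytes apart from granulocytes here. All 10 neutrophil markers were above the upper quartile too, and far higher, with a median of 47126, 8337 for Ly6g and 1389950 for S100a9. So were all 6 B cell markers, all 6 tissue macrophage markers and 3 of 5 promyelocyte markers. In the T and NK cell list and in the erythroid and platelet list, 1 of 6 was. No early progenitor or dendritic cell marker was above it. Tissue macrophage markers had a median of 5353 (C1qb 9704), B cell markers 1084 (Cd79a 4065) and promyelocyte markers 1045 (Elane 1720). T and NK cell markers had a median of 139, erythroid and platelet markers 49.2 with Hbb-bs at 11172, early progenitor markers 18.8 and dendritic cell markers 14.5. Spib and Irf4 belong also to B cells and Spic to macrophages, and the part of such cells in the levels of the 9 factors was not tested. In an average of sorted samples, fewer cells of a type and less RNA per cell cannot be told apart. Lmna, the targeted gene, had 13.6 per 1000 exon bases, below each of the 9 factors, and as an average over genotypes it does not check the deletion.

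**Figure D4:**
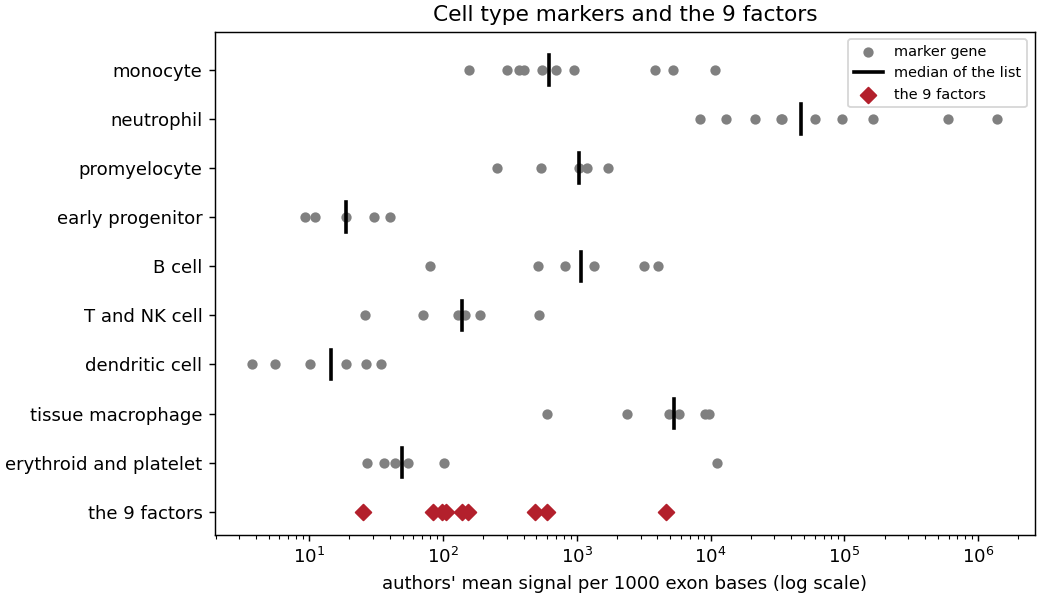
Authors' mean signal per 1000 exon bases (x axis, log scale) for the genes of 9 cell type lists (grey points, black line the median) and for the 9 factors (red diamonds). The neutrophil markers start at 8337, above all 9 factors on this scale, while the early progenitor and dendritic cell markers all lie at 40.1 or below. With the mean of the protein-coding transcripts as the length, Ly6g (12300) was below Spi1 (12539).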

How the data were processed

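Total RNA of the sorted cells was sequenced in 8 samples, 2 in each of 4 groups. Per the methods and the labels, the authors used cutadapt 1.14 for trimming, STAR 2.5.2b for alignment to mm10, RSEM 1.3.0 with GENCODE M12 for quantification, and DESeq2 1.20.0. The deposited table holds 1 row per gene with a mean signal, which the authors obtained by averaging size-factor-scaled counts over samples, and 6 columns of the authors' own genotype comparison within the CD11b+Ly6C+ subset (fold changes, their error, a test statistic and p-values), which were not used. It gives no values per sample, so the planned count test and its alternatives were not run, the depth is given in the methods only as a range of reads per sample, and no interval, test or background rate of calls is given.

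The mean signal was divided by the length of the union of exons, in units of 1000 bases, from GENCODE M21 on the same build, which holds 23004 of the 23084 identifiers. Where a symbol had several rows (28 symbols, none of them a factor), the one with the largest value was kept. Lower means strictly lower among all listed, or all protein-coding, genes. Promoter windows came from RefSeq, 1 per gene, the one nearest to the start of a principal transcript. Named are the 9 factors, fixed lists of relatives, partners, receptors and markers, Lmna, and the protein-coding genes next above and below each factor in level per length. The factors and lists were chosen with earlier results of these data known. The length and rank steps were tested on simulated data. Python 3.11.15, pandas 2.3.3 and numpy 2.4.6 were used.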

Additional observations from a re-analysis of the deposited data

How the results depend on the processing

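No paired analysis was possible because no values per sample were used, and the count test, other normalizations and fits without a replicate were not run for the same reason. The count of factors above the median was 9 among all listed genes, 7 among genes with a mean signal of at least 10, 8 among protein-coding genes and 9 per 1000 exon bases. The count above the upper quartile was 6, 4, 5 and 4. The place of each factor in the order per exon base depended on the length: 3 of the 9 kept their place with the longest transcript, 2 with the mean of the protein-coding transcripts and 2 with no length, and Spi1 stayed first and Egr2 last in each. The setting itself changes the divisor; which isoforms were expressed was not analysed here.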
